A study of Homo sapiens with 6 samples.

Results

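The genes described here encode 6 chemokine ligands of the inflammatory type (CCL20, CCL2, CXCL8, CXCL1, CXCL2 and CXCL3), the chemokine receptor CXCR4 with its ligand CXCL12, and the cytokines IL6 and LIF. They were represented by every probe set to which the array's annotation gives one of these 10 symbols and no other, which came to 16 of the 54675 probe sets on the array, for 10 of the 19775 genes it names. RNA had been taken from DMS-53, an established human small cell lung cancer line of neuroendocrine character, and hybridized to 6 Affymetrix U133 Plus 2.0 arrays. Of these, 2 were from cells given Dp44mT at 25 µM, 2 from cells given desferrioxamine (DFO) at 250 µM and 2 from cells in RPMI medium without chelator, each after 24 h. Dp44mT, a thiosemicarbazone, crosses membranes and binds iron as well as copper, and DFO is a siderophore that binds iron and enters cells poorly, which is the reason the study's design text gives for its higher dose. All groups are cultures of this one line, and only RNA was measured. The arrays of each group carry the set numbers 1 and 2, and nothing in the labels says whether they came from separate cultures, so p-values reflect only how far these arrays differ, a spread that may be technical.

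Chemokines are small secreted proteins that direct the migration of cells by binding G protein-coupled receptors. CCL20 attracts lymphocytes and dendritic cells through CCR6, CCL2 attracts monocytes through CCR2, and CXCL8 (interleukin 8), CXCL1, CXCL2 and CXCL3 attract neutrophils through CXCR2. Most of these ligand genes are classical targets of NF-kB, whereas CXCR4, which binds CXCL12 and is much studied in the spread of lung tumours, is a known target of the hypoxia-inducible factors (HIF), transcription factors whose degradation needs iron. IL6 and LIF are cytokines that signal through the shared receptor subunit gp130 and the transcription factor STAT3.

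The start-site windows of the genes whose probe sets the results turn on show what these genes share and do not share in sequence. The windows are those of RefSeq on GRCh38.p14, running from 250 bases before to 50 bases after an annotated start, and 8 of the 10 genes had one (10 windows, of which CXCR4 had 3). Capitals mark matches on either strand to a kB motif spelled GGNNNTTCC, an AP-1 motif spelled TGANTCA, or the core of a hypoxia response element spelled ACGTG or GCGTG, and these motifs do not overlap in the windows printed. The window of CCL20 (chr2:227813592-227813891, plus strand) and the most upstream window of CXCR4 (chr2:136118100-136118399, minus strand) are given because both genes were called in both chelators, and that of CXCL8 (chr4:73740319-73740618, plus strand) because it was higher on every chelator array without being called.
CCL20: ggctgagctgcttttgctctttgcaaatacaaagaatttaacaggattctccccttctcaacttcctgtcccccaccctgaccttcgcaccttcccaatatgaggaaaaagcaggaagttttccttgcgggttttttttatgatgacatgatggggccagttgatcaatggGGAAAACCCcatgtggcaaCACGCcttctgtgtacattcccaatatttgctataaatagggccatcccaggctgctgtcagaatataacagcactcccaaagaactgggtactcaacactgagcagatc
CXCR4: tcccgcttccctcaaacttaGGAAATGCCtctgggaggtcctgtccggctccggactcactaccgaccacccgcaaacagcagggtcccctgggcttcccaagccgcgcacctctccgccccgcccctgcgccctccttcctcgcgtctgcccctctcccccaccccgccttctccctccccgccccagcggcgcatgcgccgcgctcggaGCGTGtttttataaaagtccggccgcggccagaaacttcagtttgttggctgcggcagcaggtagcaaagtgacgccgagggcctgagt
CXCL8: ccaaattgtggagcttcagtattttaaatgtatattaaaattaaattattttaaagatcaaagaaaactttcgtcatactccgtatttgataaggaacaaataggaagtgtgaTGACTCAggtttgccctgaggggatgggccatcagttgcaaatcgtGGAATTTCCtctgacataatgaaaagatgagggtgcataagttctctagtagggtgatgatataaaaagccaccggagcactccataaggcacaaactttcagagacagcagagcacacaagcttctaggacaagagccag

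CXCL1, CXCL2 and CXCL3 are close relatives that lie near each other and near CXCL8 on chromosome 4. Aligned over their start-site windows, CXCL1 was identical to CXCL2 at 85.1% and to CXCL3 at 86.6% of the aligned bases, and CXCL2 to CXCL3 at 83.6%. Stretches of 89 bases around the first kB match are printed for CXCL1 (chr4:73869275-73869363, plus strand), CXCL2 (chr4:74099224-74099312, minus strand) and CXCL3 (chr4:74038719-74038807, minus strand), because these near-identical sequences belong to genes whose probe sets did not all go 1 way below. None of those probe sets was called, and a difference between them was not tested.
CXCL1: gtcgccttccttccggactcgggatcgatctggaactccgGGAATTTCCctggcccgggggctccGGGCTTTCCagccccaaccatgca
CXCL2: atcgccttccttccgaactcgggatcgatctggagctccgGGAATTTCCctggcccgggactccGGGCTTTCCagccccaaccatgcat
CXCL3: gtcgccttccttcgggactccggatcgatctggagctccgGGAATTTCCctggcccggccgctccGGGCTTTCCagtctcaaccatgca

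The kB motif was found in the windows of 7 of the 8 genes (CCL20, CXCL8, CXCL1, CXCL2, CXCL3, CXCR4 and IL6) and in 20.1% of all 35116 windows of this length. CXCL1, CXCL2 and CXCL3 each held it at 2 places. The AP-1 motif was found for 1 gene, CXCL8, and in 7.71% of all windows. The hypoxia core was found for 2 genes, CCL20 and CXCR4, and in 48.4% of all windows. These counts are of genes, whereas the shares are of windows. CXCR4 had 3 windows, with the kB motif in 1 and the hypoxia core in 2, and each other gene had 1 window. A match describes these letters and shows no binding.

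The arrays differed in brightness, and the values below were therefore compared after quantile normalization of log2(intensity + 16). Median deposited intensities were 83.6 and 49.9 for Dp44mT, 85.5 and 63.0 for DFO and 88.9 and 88.8 for control, so that the set 2 chelator arrays were the dimmest. The same 2 arrays stood apart in a principal component analysis, where the first component held 70.3% of the variance, at 129 for Dp44mT and 74.2 for DFO, against −93.9 to −0.87 for the other 4. Markers of the line itself were bright: the 10 neuroendocrine and epithelial genes measured summed to a normalized intensity (the pseudocount taken off again) of 29740 and 28550 in Dp44mT, 30810 and 30210 in DFO and 32320 and 34580 in control. Of these 10, ENO2 was called higher in both chelators and INSM1 lower in Dp44mT. The summed normalized intensity of 10 fibroblast markers was 1552 and 3499 in Dp44mT, 1478 and 2849 in DFO and 1484 and 854 in control, and that of 8 endothelial markers was 896 and 2262, 827 and 1859, and 899 and 507 in the same order. For 9 leukocyte markers it was 806 and 900 in Dp44mT, 565 and 823 in DFO and 611 and 816 in control. The endothelial sum rested mainly on PECAM1, whose mean was 9.44 on the log2 scale, against at most 6.51 for the others. PECAM1 read 10.87 on the set 2 Dp44mT array and 8.04 on the set 2 control array after normalization. VWF, TEK, ERG and CLDN5 were also higher on that Dp44mT array than on that control array, and KDR, TIE1 and CDH5 lower. None of the fibroblast, endothelial or leukocyte markers passed the test in either chelator, and PDGFRB and FAP (fibroblast), CDH5 and CLDN5 (endothelium) and PTPRC (leukocyte) were too dim to be tested. The part of these signals in the results below was not tested, except where values are given, and with bulk RNA a change in some cells cannot be told apart from a change in all.

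CCL20 and CXCR4 rose in both chelators, and no other member was called. Of the 16 probe sets, 14 (from 8 genes) were bright enough to be tested, and the single probe sets of CCL2 and LIF were not. In Dp44mT 4 of the 14 rose, where 1.07% of the 40950 probe sets tested rose, and in DFO 4 of 14 rose, where 0.569% did (limma, Benjamini-Hochberg adjusted p under 0.05). In both chelators these were the CCL20 probe set and all 3 CXCR4 probe sets. No member fell (0 of 14 in each), where 0.564% of all probe sets tested fell in Dp44mT and 0.0195% in DFO, which makes 1.64% and 0.589% called in either direction. The control means of 4 of the 14, among them 3 of the 4 called, lay under the filter limit of 5.55 on the log2 scale, so these probe sets were tested because they were bright in the chelator arrays. With no filter, 4 probe sets rose in either chelator, and the counts that follow are also of probe sets. The calls need every array of the groups compared: without either control array 0 members passed in limma in either comparison (6 in Dp44mT and 7 or 8 in DFO at an unadjusted p under 0.05), and 0 passed in Dp44mT without either Dp44mT array and 0 in DFO without either DFO array. With either Dp44mT array left out of the shared fit, 3 passed in DFO, CXCR4 211919_s_at being lost (adjusted p = 0.06 without set 1 and 0.059 without set 2).

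**Figure D1:**
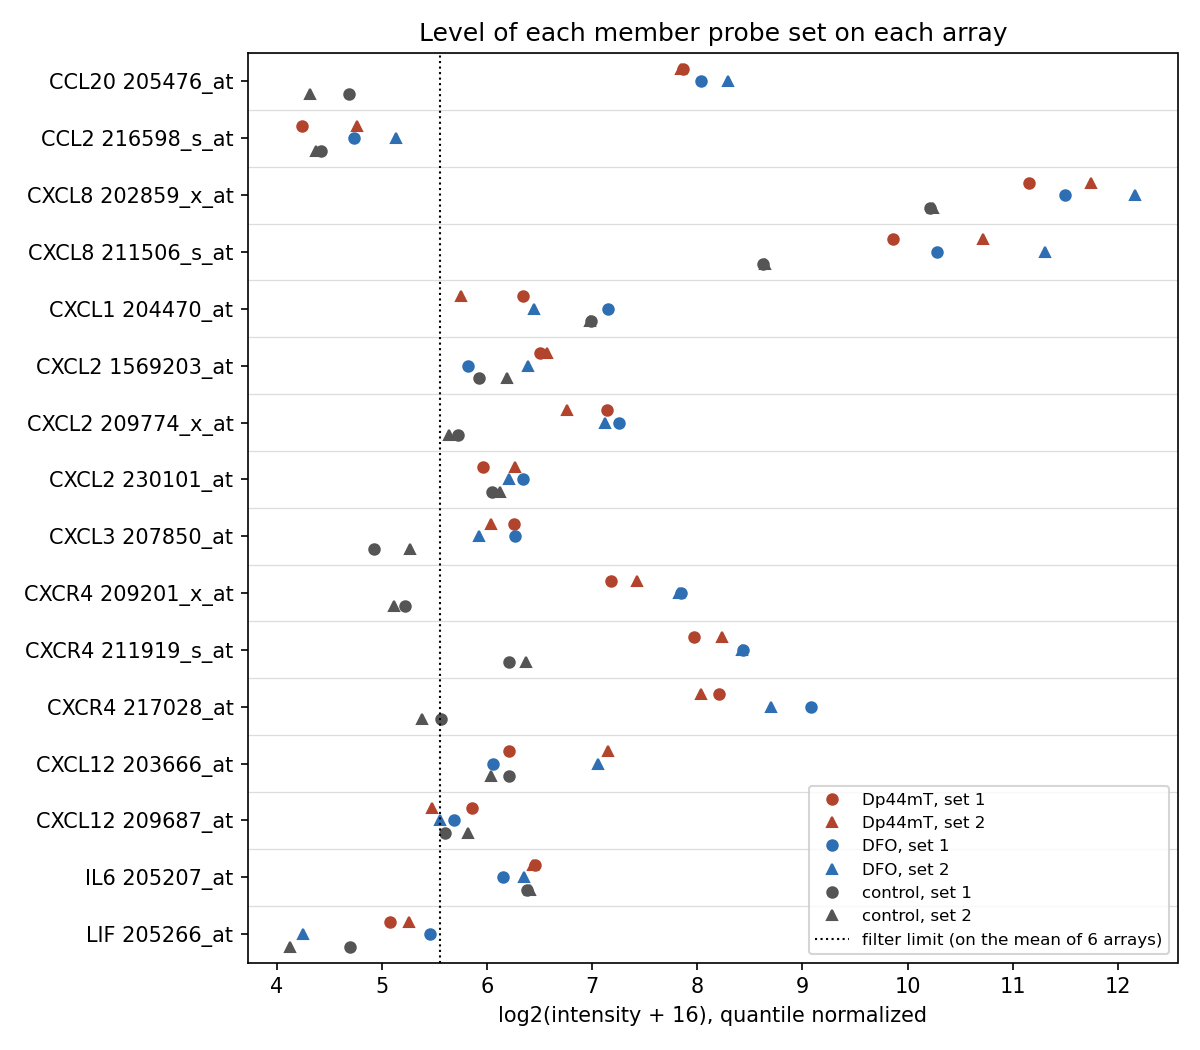
Normalized level of each of the 16 probe sets on the 6 arrays (x axis, log2(intensity + 16) after quantile normalization; circles are set 1 and triangles set 2, with Dp44mT, DFO and control from top to bottom in each row). The chelator arrays of CCL20 and of the 3 CXCR4 probe sets all lie to the right of both control arrays, while CCL2 and LIF lie left of the dotted filter limit of 5.55.

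CCL20, the ligand of CCR6, was nearly dark in control cells and of middling brightness in both chelators. Its probe set 205476_at had a deposited intensity of 234 and 125 in Dp44mT, 331 and 222 in DFO, and 10.98 and 5.30 in control. After normalization the intensities were 218 and 213 in Dp44mT, 247 and 298 in DFO and 9.83 and 3.95 in control. The groups did not overlap, and ranked within each array the probe set stood at percentiles 73.9 and 73.6 in Dp44mT and 76.2 and 79.4 in DFO, against 6.96 and 2.51 in control.

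The log2 difference of CCL20 was 3.35 in Dp44mT (SE 0.22, n = 2 arrays per group, limma adjusted p = 0.00974), a 10.2-fold increase, and 3.66 in DFO (SE 0.22, adjusted p = 0.0151), a 12.7-fold increase. Both control values lie below the pseudocount of 16, so the size of the fold depends on it: with a pseudocount of 1 the difference was 4.92 in Dp44mT and 5.25 in DFO, and with 32 it was 2.68 and 2.97. On the unscaled values CCL20 was the 1 member to pass in DFO (3.58, adjusted p = 0.0322). In Dp44mT its unscaled difference was 2.97 and did not pass (adjusted p = 0.0642). Its receptor gene CCR6 was too dim to be tested.

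CXCR4, the CXCL12 receptor, rose on each of its 3 probe sets in both chelators. Probe set 217028_at had a deposited intensity of 302 and 142 in Dp44mT, 728 and 293 in DFO and 35.2 and 30.5 in control. Normalized, that was 280.4 and 246 in Dp44mT, 528 and 399.9 in DFO and 31.2 and 25.7 in control. The DFO arrays were the brightest, both Dp44mT arrays lay between them and the control arrays, and no group overlapped another.

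On CXCR4 probe set 217028_at the log2 difference was 2.65 in Dp44mT (SE 0.23, limma adjusted p = 0.0165), a 6.28-fold increase, and 3.42 in DFO (SE 0.23, adjusted p = 0.0151), a 10.7-fold increase. Probe set 209201_x_at read 129 and 156 in normalized intensity in Dp44mT, 214 and 211 in DFO and 21.2 and 18.6 in control. Its fold increases were 4.39 in Dp44mT and 6.35 in DFO. Probe set 211919_s_at read 235 and 285 in Dp44mT, 331 and 328 in DFO and 58.1 and 67.0 in control. It rose by 3.50-fold in Dp44mT and 4.41-fold in DFO, the smallest increase of the 3. In Dp44mT its call ended when the array medians were subtracted instead (adjusted p = 0.0639) or the intensities were scaled linearly (adjusted p = 0.0571). With no scaling between arrays no CXCR4 probe set passed in either chelator: the adjusted p was 0.143 in Dp44mT and 0.088 in DFO for 217028_at, 0.17 and 0.182 for 209201_x_at, and 0.269 and 0.551 for 211919_s_at.

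The 3 CXCR4 probe sets gave increases between 3.50-fold and 6.28-fold in Dp44mT and between 4.41-fold and 10.7-fold in DFO. The probe sets read different stretches of transcript, and their sizes were not compared with a test. The labels do not say that same-numbered arrays are pairs. Subtracted by set number, the differences were all positive, which already follows from the lack of overlap with control. In set 1 they were 1.96, 1.76 and 2.65 on the log2 scale in Dp44mT and 2.63, 2.23 and 3.52 in DFO, for 209201_x_at, 211919_s_at and 217028_at in that order. In set 2 they were 2.31, 1.86 and 2.65 in Dp44mT and 2.71, 2.05 and 3.32 in DFO.

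CXCL12, the ligand of CXCR4, was not called on either of its probe sets. Probe set 203666_at had a normalized intensity of 57.8 and 126 in Dp44mT, 50.7 and 118 in DFO and 58.2 and 49.6 in control. The set 2 chelator arrays were high and the set 1 chelator arrays lay beside the controls. The log2 difference was 0.56 in Dp44mT (95% interval −0.58 to 1.69, limma adjusted p = 0.466) and 0.44 in DFO (−0.70 to 1.57, adjusted p = 0.764). Split by set, it was −0.01 in set 1 and 1.12 in set 2 for Dp44mT, and −0.15 and 1.03 for DFO.

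CXCL12 is typically made by stromal cells, and the set 2 chelator arrays that read high for it were also those with the largest summed fibroblast markers (3499 in Dp44mT and 2849 in DFO, against 854 to 1552 on the other 4 arrays). The 10 fibroblast markers did not move as one. Set against the set 2 control array after normalization, 7 were higher on both set 2 chelator arrays, LUM and FAP were lower on both, and PDGFRB was mixed, while in deposited intensity 5 were higher on both and 5 (COL1A1, LUM, PDGFRB, FAP and THY1) lower. DCN, among those higher on both scales, read 390.4 in deposited intensity on the set 2 Dp44mT array and 343 on the set 2 DFO array, against 42.5 on the set 2 control array. LUM, lower on both scales, read 41.4 and 63.0, against 108. On the set 1 arrays DCN ran between 136 and 217, the highest being the control. The set 2 control array was itself the lowest of the 6 in deposited intensity for DCN, COL1A2, COL3A1, POSTN and FN1. It read 37.2 for COL1A2, 47.1 for COL3A1 and 60.5 for POSTN, against 184 to 369, 191 to 344 and 204 to 489 on the other arrays. For LUM (108) and THY1 (195) it was the highest. The set 2 chelator arrays also read high for genes outside the fibroblast list. CXCL9 had a deposited intensity of 131 in Dp44mT and 99.1 in DFO there, against 30.5 to 32.2 on the other 4 arrays. Other genes read low there, such as CXCL6 at 14.3 in Dp44mT and 25.9 in DFO, against 37.5 to 185. The part of any of these signals in the CXCL12 values was not tested. Probe set 209687_at read 42.1 and 28.5 in normalized intensity in Dp44mT, 35.3 and 31.0 in DFO and 32.4 and 40.4 in control, and the groups overlapped. Its log2 difference was −0.04 in Dp44mT (−0.61 to 0.53) and −0.09 in DFO (−0.65 to 0.48).

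ACKR3, the atypical receptor that also binds CXCL12, was looked at after its values were seen. It had a deposited intensity of 391 and 857 in Dp44mT, 459 and 795 in DFO and 555 and 70.9 in control. The set 1 control lay within the range of the chelator arrays and the set 2 control far below it. It was not called (log2 difference 2.03, SE 1.14, adjusted p = 0.349 in Dp44mT, and 1.73, SE 1.14, adjusted p = 0.668 in DFO).

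CXCL8, the main neutrophil-attracting chemokine, was bright on all arrays and was higher on every chelator array than on either control array, but neither of its probe sets was called. Probe set 202859_x_at had a deposited intensity of 2637 and 2027 in Dp44mT, 3825 and 3392 in DFO and 1355 and 1751 in control. Normalized, it read 2261 and 3426 in Dp44mT, 2870 and 4580 in DFO and 1174 and 1195 in control. It stood at or above percentile 94.8 on all 6 arrays, the controls included.

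The log2 difference of CXCL8 202859_x_at was 1.22 in Dp44mT (SE 0.32, 95% interval 0.41 to 2.03, limma adjusted p = 0.125) and 1.60 in DFO (SE 0.32, 0.79 to 2.41, adjusted p = 0.161). Probe set 211506_s_at read 912 and 1668 in normalized intensity in Dp44mT, 1228 and 2520 in DFO and 380.1 and 384.5 in control. Its difference was 1.65 in Dp44mT (SE 0.44, adjusted p = 0.126) and 2.16 in DFO (SE 0.44, adjusted p = 0.164). After normalization the set 2 difference was the greater in both chelators and on both probe sets, for example 2.66 against 1.65 on 211506_s_at in DFO. In deposited intensity this order did not hold. There 202859_x_at in DFO read 3825 against 1355 in control in set 1, and 3392 against 1751 in set 2. The order of the sets for CXCL8 therefore depends on the scaling. With both set 2 chelator arrays left out, 211506_s_at passed in Dp44mT (1.25, adjusted p = 0.0313) and DFO (1.67, adjusted p = 0.0469), in a fit where the lone chelator array of each group is assumed to vary as the controls do. In that fit 202859_x_at did not pass (0.93, adjusted p = 0.0518 in Dp44mT, and 1.26, adjusted p = 0.0664 in DFO), and it passed in 0 of the 17 alternatives in either chelator.

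CXCL2 and CXCL3, ligands of CXCR2, were higher on the chelator arrays on 1 probe set each without being called, and the 3 probe sets of CXCL2 disagreed. Probe set 209774_x_at of CXCL2 read 125 and 92.8 in normalized intensity in Dp44mT, 137 and 123 in DFO and 36.8 and 33.8 in control, with no overlap between chelator and control arrays. Its log2 difference was 1.27 in Dp44mT (SE 0.22, limma adjusted p = 0.0603), 2.42 in fold terms, and 1.51 in DFO (SE 0.22, adjusted p = 0.0719), 2.84 in fold terms. Neither passed. With only probe sets above the median brightness tested, the same differences did (adjusted p = 0.0411 in Dp44mT and 0.0444 in DFO). The probe set met that filter only through the chelator arrays, at percentiles 55.3 to 64.4, against 30.6 and 28.3 in control. The passes under it are therefore no further support. In Dp44mT the difference also passed with the set number as a replicate block (adjusted p = 0.0486) or 1 probe set per gene (adjusted p = 0.0443). Without both set 2 chelator arrays, which leaves 1 array per chelator, the differences were 1.56 in Dp44mT and 1.68 in DFO. Over all 17 alternatives, that fit included, 209774_x_at passed in only 4 in Dp44mT and 2 in DFO.

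Probe sets 230101_at and 1569203_at, also annotated to CXCL2, gave smaller differences and were not called. Probe set 230101_at read 46.5 and 60.8 in Dp44mT, 65.1 and 58.0 in DFO and 50.3 and 53.6 in control, with a log2 difference of 0.03 in Dp44mT (95% interval −0.48 to 0.54) and 0.19 in DFO (−0.32 to 0.70). Its DFO arrays lay above both controls and its Dp44mT arrays on either side of them. Probe set 1569203_at read 75.0 and 79.2 in Dp44mT, 40.6 and 67.8 in DFO and 44.5 and 57.0 in control, so that here the Dp44mT arrays lay above both controls and the DFO arrays on either side. For 1569203_at the difference was 0.49 in Dp44mT (−0.17 to 1.14) and 0.05 in DFO (−0.60 to 0.70). The intervals of both lie below those of CCL20 and CXCR4. Probe sets whose names end in _x_at can hold probes that also match other transcripts, and with relatives as close as CXCL1, CXCL2 and CXCL3 the reading of 209774_x_at cannot be assigned to CXCL2 alone.

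The single CXCL3 probe set, 207850_at, read 60.5 and 49.9 in normalized intensity in Dp44mT, 60.8 and 44.9 in DFO and 14.3 and 22.6 in control. All 4 chelator arrays lay above both controls. The log2 difference was 1.05 in Dp44mT (SE 0.24, limma adjusted p = 0.0973) and 1.00 in DFO (SE 0.24, adjusted p = 0.226), and neither passed. Without both set 2 chelator arrays, which leaves 1 array per chelator, the Dp44mT value was 1.21.

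CXCL1 went the other way in Dp44mT without passing the test. Its probe set 204470_at had a deposited intensity of 72.9 and 25.6 in Dp44mT, 154 and 59.9 in DFO and 134 and 132 in control. Normalized, it read 65.1 and 38.0 in Dp44mT, 126 and 71.2 in DFO and 110.7 and 109.9 in control. Both Dp44mT arrays lay below both controls, whereas the DFO arrays lay on either side of them. The log2 difference was −0.93 in Dp44mT (SE 0.33, 95% interval −1.75 to −0.11, limma adjusted p = 0.193) and −0.18 in DFO (SE 0.33, −1 to 0.64, adjusted p = 0.855). Its interval in Dp44mT does not meet those of CXCL2 209774_x_at (0.73 to 1.81) or CXCL3 (0.45 to 1.65), though a difference between probe sets was not tested. The DFO value was 0.16 in set 1 and −0.53 in set 2.

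IL6 was not called. Its probe set 205207_at read 71.9 and 70.8 in normalized intensity in Dp44mT, 55.0 and 65.7 in DFO and 67.4 and 68.7 in control, close to the middle of each array's intensity range (percentiles 41.5 to 48.8). The log2 difference was 0.06 in Dp44mT (95% interval −0.42 to 0.53) and −0.14 in DFO (−0.62 to 0.33), so in these intervals a change of 1 on the log2 scale is not included. All arrays lay between 55.0 and 71.9, and whether a reading of this size exceeds background was not tested.

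CCL2 and LIF were dim, with means at percentiles 4.41 and 7.53 of all probe sets, and were not tested. CCL2 probe set 216598_s_at had a deposited intensity of 3.39 and 6.73 in Dp44mT, 11.6 and 16.8 in DFO and 6.31 and 6.15 in control. LIF probe set 205266_at read 20.6 and 14.6 in Dp44mT, 29.9 and 2.52 in DFO and 11.03 and 2.49 in control. Both DFO arrays lay above the controls for CCL2 and both Dp44mT arrays for LIF. Most of these values lie near or below the pseudocount of 16, and differences were not tested for either gene at this brightness.

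**Figure D2:**
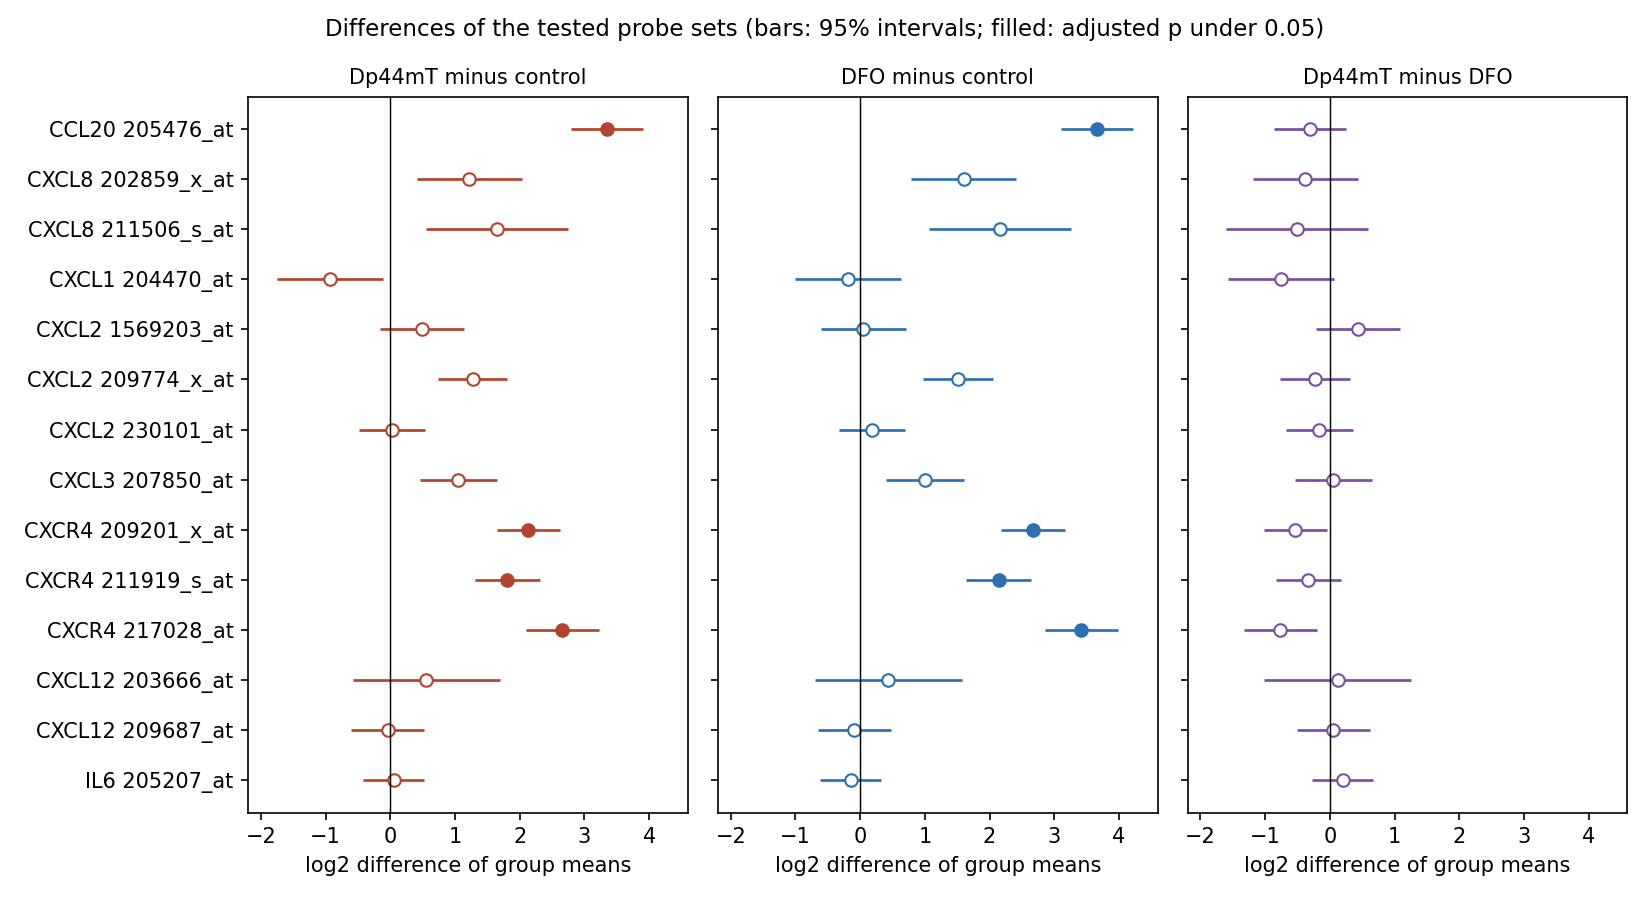
Log2 differences of group means for the 14 tested probe sets in 3 comparisons (Dp44mT minus control, DFO minus control and Dp44mT minus DFO), with 95% intervals as bars and filled points where the adjusted p was under 0.05. CCL20 and the 3 CXCR4 probe sets are filled in both chelators, no point is filled between the chelators, and CXCL1 is the 1 probe set whose interval lies below 0 in Dp44mT.

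Across the 14 tested probe sets, the chelator arrays did not overlap the control arrays in 11 for Dp44mT (10 above, 1 below) and in 10 for DFO (9 above, 1 below). Over all probe sets tested 61.3% did not overlap in Dp44mT (28.5% above, 32.8% below) and 44.8% in DFO (17.0% above, 27.8% below), so an absence of overlap between 2 and 2 arrays is common here. The median log2 difference of the 14 was 1.14 in Dp44mT and 1.25 in DFO, beside 0.01 and −0.04 over all probe sets tested. These medians are a description, since some of the 14 passed the filter only through their brightness under chelator. Both comparisons use the same pair of control arrays, so the likeness of their differences is no independent evidence.

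**Figure D3:**
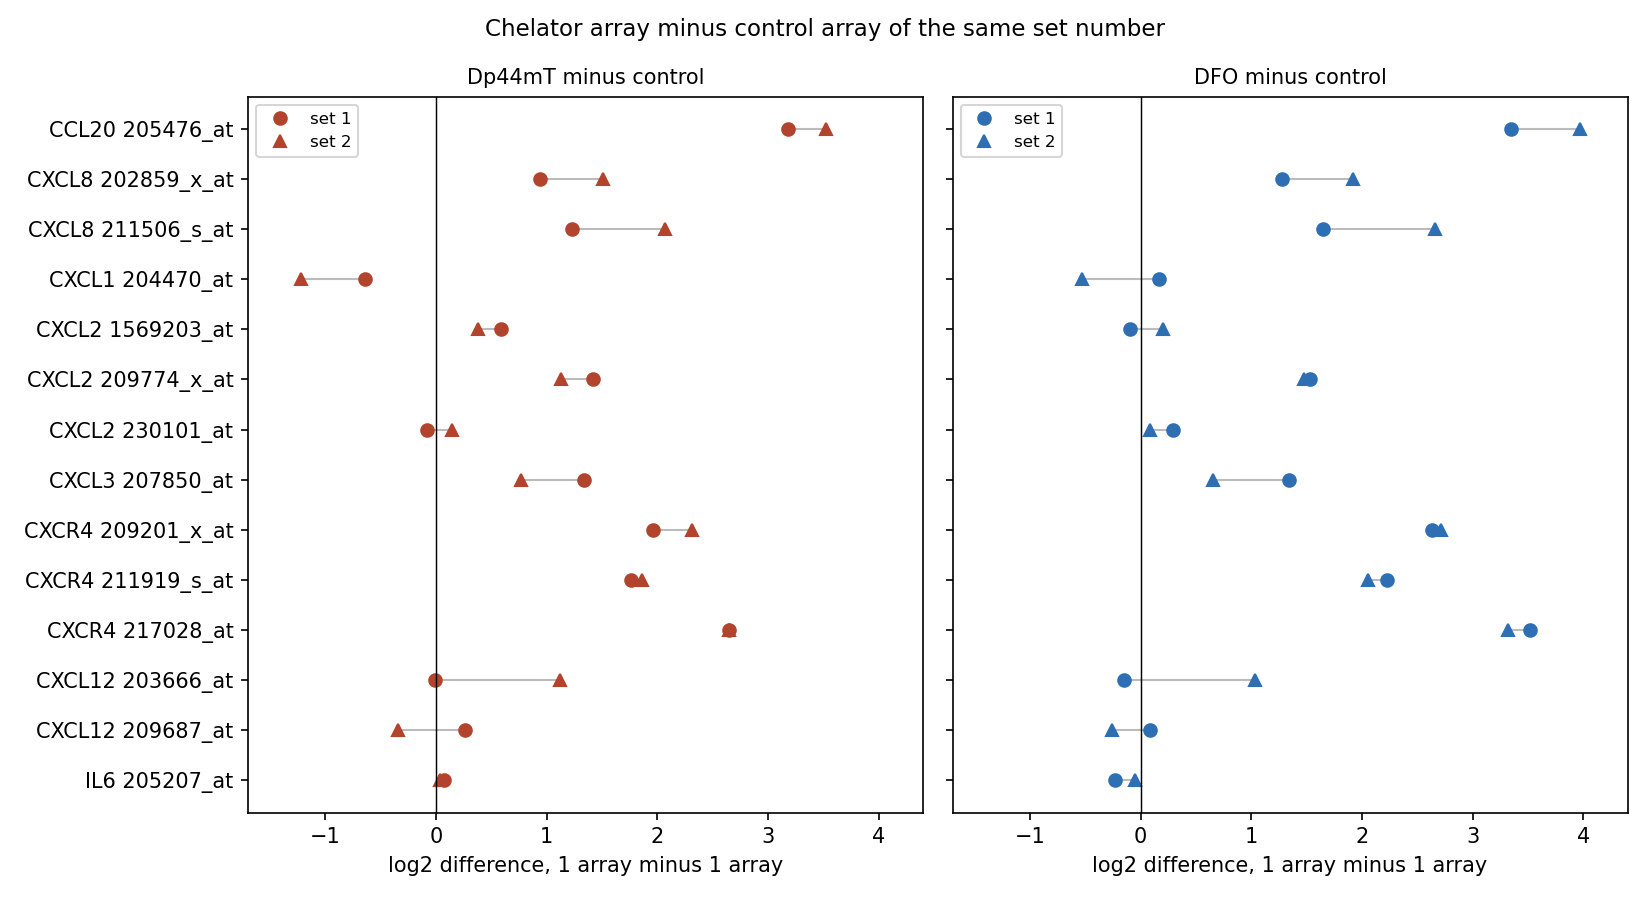
Log2 difference, after quantile normalization, of each chelator array from the control array of the same set number for the 14 tested probe sets. Circles are set 1 and triangles set 2, with Dp44mT on the left and DFO on the right. The sets lie close together for CXCR4 and CXCL2 209774_x_at. They lie apart for CXCL8 and for CXCL12 203666_at, which is at −0.01 and 1.12 in Dp44mT. CCL20 in DFO (3.35 and 3.97), and CXCL3 (1.34 and 0.77) and CXCL1 (−0.64 and −1.22) in Dp44mT, also lie apart. Same-numbered arrays are not known to be pairs.

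The direct comparison asked whether the chelators differed from each other in these genes. Their doses differ by the study's design, so the comparison is of 25 µM Dp44mT with 250 µM DFO. No member was called in limma (0 of 14, with 2 at an unadjusted p under 0.05), nor was any of the 40950 probe sets (0% called, with 1347 at an unadjusted p under 0.05). After normalization CXCR4 was lower in Dp44mT than in DFO on all 3 probe sets, with no overlap between their arrays on any of them, where 25.4% of all probe sets tested did not overlap (12.9% above, 12.4% below). In deposited intensity the set 1 Dp44mT array lay above the set 2 DFO array on 217028_at (302 against 293) and 211919_s_at (252 against 243). Only 209201_x_at did not overlap there. The log2 difference was −0.77 on 217028_at (95% interval −1.33 to −0.21, adjusted p = 0.969), −0.53 on 209201_x_at (−1.02 to −0.04) and −0.33 on 211919_s_at (−0.83 to 0.17). For CCL20 it was −0.31 (−0.87 to 0.25), for CXCL8 −0.38 (−1.19 to 0.43) on 202859_x_at and −0.51 (−1.61 to 0.60) on 211506_s_at, and for CXCL1 −0.75 (−1.57 to 0.07). These intervals come from a fit that does not pair the arrays by set number. Their widths leave room for differences of about 1 on the log2 scale, so the missing calls do not show that the chelators act alike.

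Among the listed genes outside the members, most calls were HIF targets (9 of 9 tested in Dp44mT and 8 of 9 in DFO). The NF-kB list followed (5 of 13 and 1 of 13), and IL6R, BCL6 and ZFP36 were called singly. No further chemokine, chemokine receptor or inflammatory cytokine was called. Of 37 other chemokine ligands, 21 were bright enough to test and none passed in Dp44mT or DFO (limma, 0 of 21 each). CXCL6, which also binds CXCR2, had the smallest p, with a log2 difference of −1.83 in Dp44mT (adjusted p = 0.109) and −1.11 in DFO (adjusted p = 0.457), from a deposited intensity of 37.5 and 14.3 in Dp44mT, 111 and 25.9 in DFO and 185 and 151 in control. CCL28, a mucosal chemokine, stood at 0.72 and 0.40. The list medians were 0.38 in Dp44mT and 0.06 in DFO. Of 22 other chemokine receptors, 13 were tested and none passed (0 of 13 each, medians 0.44 and 0.08), with CX3CR1 at 0.82 and CXCR1 at 0.61 in Dp44mT and at 0.28 and 0.14 in DFO. CXCR2, the receptor shared by CXCL1, CXCL2, CXCL3 and CXCL8, was too dim to be tested.

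IL6R, which encodes the ligand-binding subunit of the IL6 receptor, rose in Dp44mT by 7.66-fold (log2 2.94, limma adjusted p = 0.0231). Its deposited intensity was 543 and 193 in Dp44mT, 466 and 172 in DFO and 41.2 and 52.7 in control. In DFO its log2 difference was 2.38 with an adjusted p of 0.05, which did not pass. It was the only 1 of 9 tested genes of the IL6 family to be called in Dp44mT, and none of the 9 was called in DFO (list medians 0.46 and 0.22). The shared subunit gene IL6ST stood at 0.46 in Dp44mT and 0.76 in DFO, and the LIF receptor gene LIFR at −0.29 and −0.17.

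Of 12 genes of STAT3 and its feedback, BCL6, a transcriptional repressor, rose in both chelators by 3.75-fold in Dp44mT (adjusted p = 0.0269) and 4.28-fold in DFO (adjusted p = 0.03), and the other 11 did not pass (medians 0.38 and 0.25). SOCS3, the feedback inhibitor of IL6 and LIF signalling, had a log2 difference of 0.83 in Dp44mT (adjusted p = 0.206) and 0.20 in DFO (adjusted p = 0.829). None of 12 tested genes among 20 other inflammatory cytokines passed in either chelator (medians 0.74 and 0.35). TNFSF15 stood at −1.46 in Dp44mT and −0.45 in DFO and IL15 at 1.15 and 0.57, while TNF stood at 0.82 and 0.45 and IL1B at 0.66 and 0.32.

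In the list of NF-kB subunits and feedback, 5 of 13 tested genes rose in Dp44mT and 1 of 13 in DFO, with medians of 1.20 and 1.29. TNFAIP3, the ubiquitin-editing inhibitor A20, rose in both (log2 5.14 in Dp44mT, adjusted p = 0.00974, and 4.85 in DFO, adjusted p = 0.0149), with a deposited intensity of 1857 and 912 in Dp44mT, 1654 and 1054 in DFO and 34.4 and 38.0 in control. NFKBIA, RELB, NFKB2 and TNIP1 were called in Dp44mT (log2 2.56, 1.58, 1.57 and 1.49). In DFO they stood at 1.89, 1.36, 1.36 and 1.38 with adjusted p of 0.142, 0.0841, 0.0777 and 0.0569, and the difference between the chelators passed for none of the 4 (adjusted p = 0.969 each). ZFP36, which encodes the protein tristetraprolin that promotes the decay of AU-rich mRNAs such as those of CXCL8, IL6 and the CXCR2 ligands, rose in Dp44mT (log2 1.59, limma adjusted p = 0.0344). In DFO its log2 difference was also 1.59 and did not pass (adjusted p = 0.0523). It was the 1 gene called of 8 tested mRNA decay factors, whose medians were −0.43 in Dp44mT and −0.21 in DFO.

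The HIF targets listed beside CXCR4 were called almost throughout, 9 of 9 in Dp44mT and 8 of 9 in DFO, all higher (medians 2.33 and 2.49). The 3 CXCR4 probe sets, at 1.81 to 2.65 in Dp44mT and 2.14 to 3.42 in DFO, fall within the wide range of these genes (1.5 to 4.4 and 1.7 to 4.45). So do CCL20 (3.35 and 3.66), IL6R (2.94 and 2.38), NFKBIA (2.56 and 1.89) and BCL6 (1.91 and 2.10). The uncalled CXCL8 probe set 211506_s_at (1.65 and 2.16) lies within it too, so this range does not set a gene apart. A role of HIF in any of these was not tested. Among the HIF targets ADM, which encodes adrenomedullin, had the highest value in both chelators, and the mitophagy gene BNIP3 the lowest. ANKRD37 stood at 4.26 in Dp44mT and 4.12 in DFO, the histone demethylase gene KDM3A at 3.25 and 3.07, the HIF prolyl hydroxylase gene EGLN3 at 2.46 and 2.75, the vascular growth factor gene VEGFA at 2.33 and 2.49, and NDRG1 at 2.02 and 2.11. Over all the lists, 17 genes were called in Dp44mT and 10 in DFO, and 0 in either without either control array. The lists were chosen with earlier results of these data known and give no independent support.

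**Figure D4:**
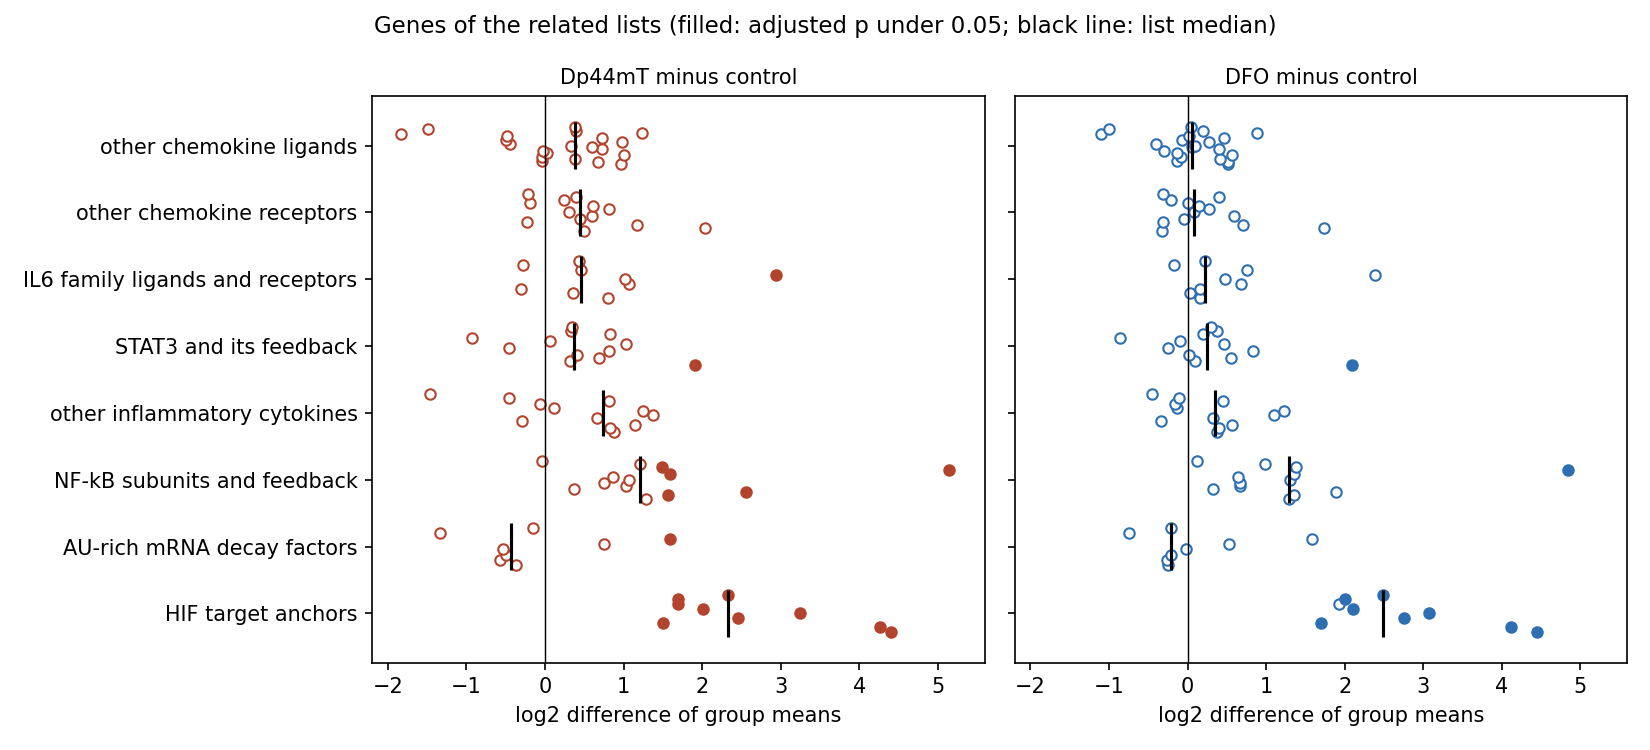
Log2 differences of the tested genes of 8 lists related to the members (left Dp44mT minus control, right DFO minus control; each point is 1 gene, filled where the adjusted p was under 0.05, and the black line is the list median). Filled points are seen among HIF targets and NF-kB feedback and singly in 3 further lists in Dp44mT (IL6R, BCL6 and ZFP36), and none among the other chemokine ligands, chemokine receptors or inflammatory cytokines.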

How the data were processed

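The authors deposited 1 linear intensity per probe set and array, produced in Expression Console 1.1 (Affymetrix) according to the submitters' processing notes; how probes were summarized and arrays normalized is not given in the sources used here. From all 54675 probe sets, log2(intensity + 16) was quantile normalized, because the 6 arrays differed in brightness (R 4.3.3, limma 3.58.1). Normalized intensities are these values on the linear scale with the pseudocount of 16 taken off. Control probes and probe sets with a mean under the 25th percentile (5.55) were left out. The other 40950 were fitted with lmFit and eBayes over all 3 groups (3 residual and 2.53 prior degrees of freedom), with two-sided tests and Benjamini-Hochberg adjustment. With 2 arrays against 2, exact permutation p-values could not fall under 0.333 and were not used. The median half-width of a 95% interval was 0.68 on the log2 scale, which the number of arrays limits. The script was tested on simulated data.

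Symbols came from the platform annotation (41097 probe sets with 1 symbol, 1801 with several, 11777 with none), updated through RefSeq. For list genes the brightest probe set by mean was used. From each list the text names the genes called in either chelator, up to 6, or else the 2 with the smallest p. CCR6, CXCR2, ACKR3, CXCL9, IL6ST, LIFR, SOCS3, TNF, IL1B, BNIP3 and the markers named fall outside this rule and were chosen after their values were seen. Members and lists were chosen with earlier results of these data known. Alternatives changed the scaling, pseudocount, filter, probe set choice, variance model, replicate block and arrays used.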

Additional observations from a re-analysis of the deposited data

How the results depend on the processing

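Across 17 alternatives the 4 member probe sets called in each chelator kept their sign, while values of members not called changed sign in 9 of 160 cases in Dp44mT, 10 of 160 in DFO and 11 of 226 between the chelators. No member passed between the chelators in any alternative. In the counts of members that follow, each member probe set is counted, so that a gene with several probe sets can count more than once. Without scaling between arrays, where the median of all probe sets was −0.47 in Dp44mT and −0.30 in DFO, 0 members rose in Dp44mT and 1 in DFO, and 3 list genes in each. With array medians subtracted or linear scaling, 7 list genes rose in Dp44mT and 6 in DFO. With a pseudocount of 1, 8 list genes rose in Dp44mT, and with an intensity trend 1 fell there and 16 rose in DFO. With 1 probe set per gene, which leaves 1 CXCR4 probe set, 2 members rose in DFO. Without both set 2 chelator arrays, 7 members rose and 3 list genes fell in Dp44mT. Leaving out 1 array at a time gave 0 to 4 members higher in Dp44mT and 0 to 3 in DFO, with 0 to 11 list genes higher and 0 to 1 lower in Dp44mT and 0 to 4 higher in DFO. A group left with 1 array is assumed to vary like the others. With the set number as a replicate block, 5 members rose in Dp44mT and 4 in DFO. Same-numbered arrays deviated with a correlation of −0.33 between Dp44mT and control and −0.23 between DFO and control, so the numbers were not taken as pairs there. Between the chelators the correlation was 0.83, a shared set difference that the unpaired fit leaves in the error of their direct comparison. With the replicate block, 0 probe sets passed in that comparison. The cause of these changes was not tested. Dim signal limits CCL2, LIF, CCR6 and CXCR2.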
